A study of Mus musculus with 2 samples.

Results

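Newly formed oligodendrocytes (NFOs) were examined in single-cell RNA-seq of the mouse optic nerve, as the cell barcodes to which the authors gave the type NFO. There were 144 such barcodes among the 1369 typed as oligodendrocyte precursor cell (OPC), NFO or Oligodendrocyte, with 44 in the uninjured and 100 in the injured library. The injured library came from 5 nerves taken at the site of an optic nerve crush (ONC), a pinch that severs the axons of the retinal ganglion cells. ONC was made at 8 weeks of age and the tissue was taken 2 weeks later, at 10 weeks. The uninjured library came from 5 nerves of animals of the same age. All animals were wild type (genotype given as Wildtype) of the strain 129S1/SvlmJ, with males and females pooled. There was thus 1 library per condition and no replicate, so condition and library cannot be told apart and no test between them was made. For both libraries the sample labels list 56 days as the age and name a crush, and the uninjured library was identified by its title, which calls it the control.

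An oligodendrocyte is the cell that wraps axons of the central nervous system in myelin. It arises from the OPC, a dividing cell marked by the receptor Pdgfra, through a short premyelinating stage in which the cell stops dividing, extends many processes and either contacts axons or dies. NFOs are cells of that stage. They are known for the kinase Fyn, which relays axonal contact to the cytoskeleton, for Bcas1 and the choline phosphodiesterase Enpp6, both found in early myelinating cells, for the receptor Gpr17, which holds back maturation, and for the transcription factor Tcf7l2.

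Values are UMIs, which count single RNA molecules. NFO barcodes were shallow. The uninjured NFOs held 94130 UMIs in all, with 369 in the poorest barcode, a median of 1259.5 and 13369 in the richest, and the injured NFOs held 351851, with 509, a median of 1258.5 and 29396. In the injured library 8 barcodes with 8000 UMIs or more supplied 55.0% of all NFO UMIs, and in the uninjured library 2 such barcodes supplied 25.4%. Levels below are CPM, in which the UMIs of a gene summed over a class of barcodes are scaled to a fixed total for each class, so that a deep barcode weighs more than a shallow one. Every interval in brackets is an exact 95% interval for counting error alone and leaves out the spread between nerves. No barcode sequence was shared between the libraries (0).

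NFOs made up 4.59% (3.35 to 6.11) of the uninjured lineage barcodes and 24.4% (20.3 to 28.8) of the injured ones. The other stages were smaller shares of the injured total. OPCs were 6.05% of uninjured and 4.15% of injured barcodes, and Oligodendrocytes were 89.4% and 71.5%. These are shares of barcodes that passed the authors' filters and drawing of cells, and a larger share cannot be told apart from a loss of the other types. The direction rests on the authors' types, since 55.5% of uninjured and 48.3% of injured lineage barcodes held at least 2 of the 6 NFO markers named below, without thinning to a common depth.

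The type was first set against its 6 markers. As the types were made from expression, and Fyn is the gene by which the study marks NFOs, this describes the label and is no independent check of it. Summed over the class, the markers stood at 4728 CPM (4298 to 5188) in uninjured NFOs and 7276 CPM (6997 to 7563) in injured NFOs, against 1512 and 1233 CPM in OPCs. Each of the 6 had UMIs in both NFO classes. The zinc transporter Tmem163 was the rarest of them, with 5 UMIs before and 70 UMIs after ONC, and had 0 UMIs in OPCs of either library. Single barcodes carried the label less clearly. Of the uninjured NFO barcodes 52.3% (36.7 to 67.5) held a UMI of at least 2 of the 6 markers, and of the injured ones 72% (62.1 to 80.5). At their own depth the deeper uninjured OPCs (median 2290 UMIs) and Oligodendrocytes (median 3060) reached 60.3% and 55.3% by the same measure. With every barcode thinned to 500 UMIs the shares were 45.2% and 58% in uninjured and injured NFOs, 12.5% and 23.5% in OPCs, and 5.73% and 2.73% in Oligodendrocytes. The thinning left out 2 uninjured NFO, 2 uninjured OPC and 19 uninjured Oligodendrocyte barcodes and no injured barcode.

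The marker list with most UMIs in a barcode also varied within NFOs. Lists of 10 OPC and 10 mature oligodendrocyte markers were set beside the 6 NFO markers. In the uninjured library the NFO list led in 7 of 44 NFO barcodes (15.9%, 6.64 to 30.1), the OPC list in 20 (45.5%) and the mature list in 16 (36.4%). In the injured library the NFO list led in 50 of 100, the OPC list in 25 and the mature list in 19. By contrast, the OPC list led in 55 of 58 uninjured OPCs and the mature list in all 857 uninjured Oligodendrocytes. Thus most uninjured NFO barcodes had more OPC or mature marker UMIs than NFO marker UMIs, and they are called NFOs here because the authors typed them so. An OPC and a mature marker both had UMIs in 79.5% of the uninjured NFO barcodes and 66% of the injured ones. By the same measure, at own depth the shares were 94.8% and 64.7% in uninjured and injured OPCs, and 33.4% and 33.1% in Oligodendrocytes. At own depth this trait therefore did not set NFOs apart from OPCs. After thinning to a common depth the shares were 64.3% and 40% in NFOs, 48.2% and 23.5% in OPCs, and 8.0% and 8.87% in Oligodendrocytes.

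**Figure D1:**
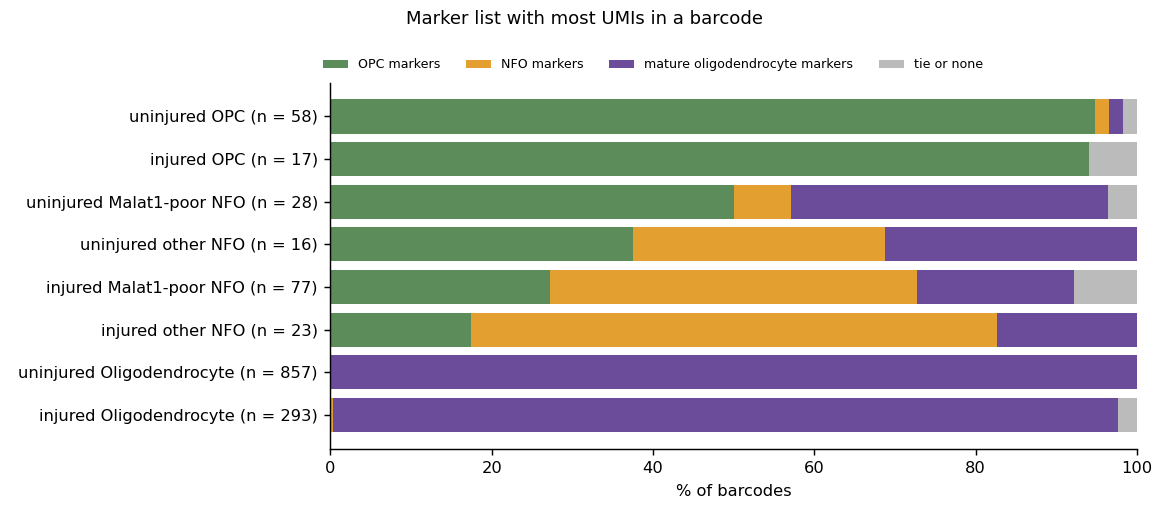
Percent of barcodes (horizontal axis) in which the OPC, NFO or mature oligodendrocyte marker list had most UMIs, with ties or no UMI shown apart. Rows are the types of each library. NFOs are split into barcodes with Malat1 under 0.5% of UMIs (Malat1-poor) and the others, as described further below. The NFO list led in 7.14% of Malat1-poor and 31.25% of other NFO barcodes in the uninjured library. In the injured library it led in 45.5% and 65.2%. By contrast, 1 list led in nearly every OPC and Oligodendrocyte barcode.

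NFOs were next set against OPCs and Oligodendrocytes across all genes. As the types were made from expression, this is a description of the stage and not a test. TMM scaling shifted these log2 ratios by -0.03 and 0.36 over OPCs and by -0.53 and -0.26 over Oligodendrocytes, in the uninjured and the injured library. Of 811 genes that reached a sum of 50 UMIs over NFOs and OPCs in each library, 38 (4.69%) were at least 2-fold higher in NFOs in both libraries and 46 (5.67%) at least 2-fold lower. Against Oligodendrocytes 470 of 6356 genes (7.39%) were higher and 789 (12.4%) lower. A set of 18 of the 767 genes measured in all 4 comparisons (2.35%) was at least 2-fold higher than in both other types in both libraries. These were Fyn, Rnd2, Bcas1, Gpr17, Sirt2, Tns3, Nfasc, Mfsd2a, Lims2, Mink1, Epb41l2, Mpzl1, Tuba1a, Tubb2b, Pfn2, Dynll1, Dynll2 and Cdv3. Only 4 genes (0.522%) were at least 2-fold lower in all 4 comparisons, namely Slc38a2, Pura, Lrp1b and Prnp.

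Fyn led the set. It stood at 1105 CPM in uninjured and 2129 CPM in injured NFOs, against 152 and 247 CPM in OPCs and 44.1 and 58.6 CPM in Oligodendrocytes. It was therefore 7.28-fold (4.70 to 11.7) and 8.63-fold (5.96 to 13.0) higher than in OPCs, and 25.1-fold (19.5 to 32.0) and 36.3-fold (30.2 to 43.9) higher than in Oligodendrocytes. Fyn had a UMI in 47.7% of uninjured NFO barcodes and 72% of the injured ones, and in 15.6% and 25.3% of Oligodendrocytes, whose median depths were 3060 and 1268 UMIs. Fyn lies on chromosome 10 of mm10, from 39368855 to 39565381.

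The other 2 markers in the set differed in which neighbour they set NFOs apart from. Bcas1 stood at 1583 and 2561 CPM in uninjured and injured NFOs, at 747 and 663 CPM in OPCs, and at 547 and 539 CPM in Oligodendrocytes. Its NFO level was 2.12-fold and 3.86-fold that of OPCs and 2.89-fold and 4.75-fold that of Oligodendrocytes. With equal weight per barcode the uninjured ratio of Bcas1 to OPCs was 0.985, so its direction depended on the weighting. Gpr17 was close to absent from Oligodendrocytes, at 1200 CPM in NFOs against 3.13 CPM in the uninjured library and 776 against 0.434 CPM (1 UMI) after ONC. Against OPCs Gpr17 was only 2.24-fold and 2.76-fold higher.

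Enpp6 and Tcf7l2 did not enter the set. Enpp6 had 1 UMI in the OPCs of each library. It stood at 404 CPM in uninjured NFOs and 524 CPM in uninjured Oligodendrocytes, a ratio of 0.770 (0.543 to 1.06) whose interval spans 1, and at 1194 and 424 CPM in the injured library, 2.81-fold higher in NFOs. When each barcode had the same weight, the uninjured ratio of Enpp6 was 1.21. Tcf7l2 stood at 382 and 418 CPM in uninjured and injured NFOs and was 26.0-fold and 64.1-fold higher than in Oligodendrocytes. It missed the minimum of 50 summed UMIs against uninjured OPCs, where it was 5.46-fold (2.78 to 11.5) higher.

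**Figure D2:**
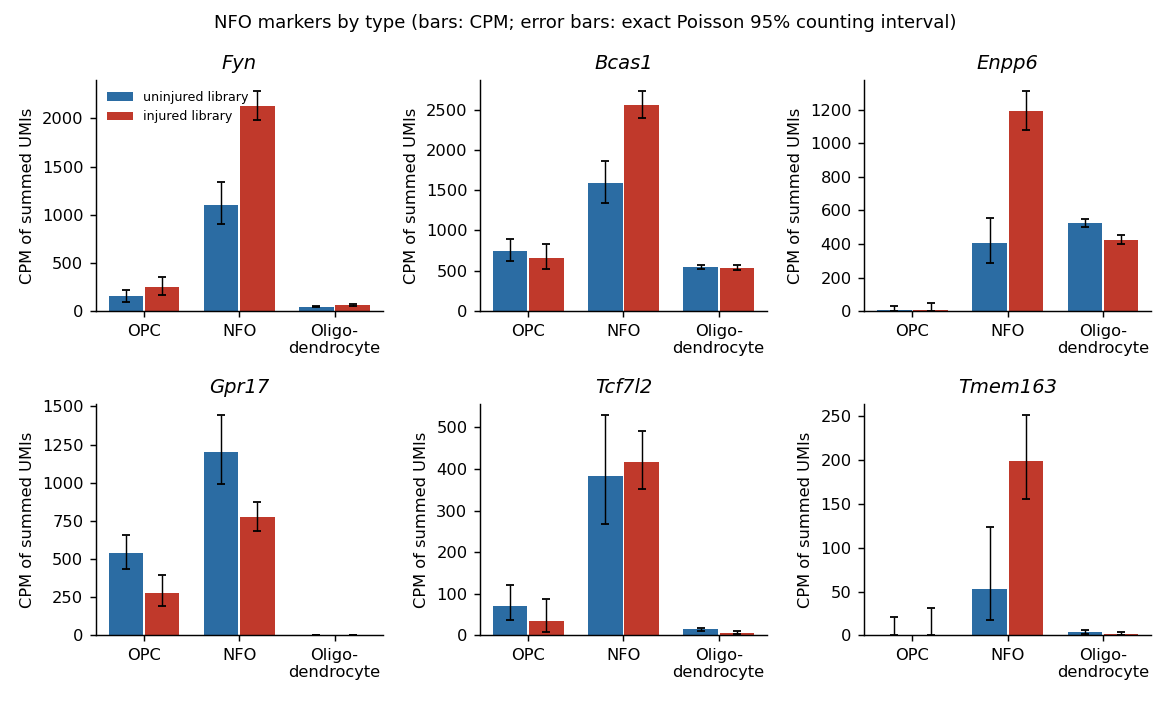
CPM of summed UMIs of the 6 NFO markers (linear axis) in OPCs, NFOs and Oligodendrocytes of the uninjured and injured libraries, with exact 95% counting intervals. Fyn, Gpr17 and Tcf7l2 are highest in NFOs of both libraries, whereas Enpp6 in uninjured NFOs (404 CPM) is level with uninjured Oligodendrocytes (524 CPM).

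The set held the tubulin genes Tuba1a and Tubb2b, the profilin Pfn2 and the dynein light chains Dynll1 and Dynll2. Tuba1a, an alpha tubulin of growing cells, stood at 5928 and 12733 CPM in uninjured and injured NFOs, 3.53-fold and 5.69-fold over OPCs and 2.65-fold and 14.7-fold over Oligodendrocytes. The actin-binding profilin Pfn2 stood at 1041 and 1495 CPM and was 5.10-fold and 3.82-fold over OPCs. The dynein light chains Dynll1 and Dynll2, which serve cargo transport along microtubules, stood at 2603 and 2765 CPM and at 712 and 1665 CPM. Dynll2 was 9.62-fold and 18.3-fold over Oligodendrocytes. The tubulin deacetylase Sirt2 stood at 1764 and 4553 CPM, 7.03-fold and 16.2-fold over OPCs, and Rnd2, a small GTPase, at 446 and 1177 CPM, 9.56-fold and 12.6-fold over OPCs. The list of 20 actin and tubulin genes summed to 1.95-fold (1.85 to 2.06) the level of uninjured OPCs and 1.93-fold (1.85 to 2.01) after ONC. Of its measured genes, 4 of 14 were at least 2-fold higher than in uninjured OPCs and 4 of 18 after ONC, with median log2 ratios of 0.61 and 0.49, against 13.4% and 14.1% of all genes measured, whose medians were 0.23 and 0.11. Over Oligodendrocytes 7 of 19 were at least 2-fold higher in the uninjured classes and 9 of 20 after ONC, against 17.7% and 13.5% of all genes, with 4 and 3 at least 2-fold lower.

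Nfasc, Mfsd2a and Lims2 were further members. Nfasc, whose products join axon and glia at the node of Ranvier, stood at 807 CPM in uninjured NFOs and 1216 CPM in injured NFOs, 6.92-fold and 6.22-fold over OPCs and 2.38-fold and 3.03-fold over Oligodendrocytes. In the uninjured library 59.2% of its UMIs came from 1 barcode. Mfsd2a, a transporter of lysophospholipids carrying docosahexaenoic acid, stood at 404 and 207 CPM in NFOs and at 4.82 and 5.21 CPM in Oligodendrocytes. Lims2, an adaptor at integrin contacts, stood at 850 and 841 CPM and was 20-fold and 58.7-fold over Oligodendrocytes, but 2.91-fold and 3.0-fold over OPCs.

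The lists for the stages before and after placed NFOs between them. Of the OPC markers, 5 of 9 measured were at least 2-fold lower in NFOs than in uninjured OPCs and 6 of 9 after ONC, and none (0) was higher. Over all genes measured, 12.6% and 7.71% were at least 2-fold lower than in OPCs. Pdgfra stood at 2142 CPM in uninjured OPCs and 202 CPM in uninjured NFOs, and at 961 and 42.6 CPM in the injured classes. Of the 10 mature oligodendrocyte markers, all 10 were at least 2-fold lower in NFOs than in uninjured Oligodendrocytes and 9 after ONC. The shares over all genes were 24% and 19.4%. The myelin surface glycoprotein Mog stood at 244 CPM in uninjured NFOs against 3208 CPM in Oligodendrocytes, and at 458 against 2180 CPM in the injured library. Across genes, the Spearman correlation of NFO levels with OPC levels was 0.730 in the uninjured and 0.745 in the injured library, and with Oligodendrocyte levels 0.573 and 0.579. Those classes share a library, and genes are not independent replicates.

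The genes lower in NFOs than in both neighbours were few. Prnp, the prion protein gene, stood at 95.6 and 162 CPM in uninjured and injured NFOs, against 473 and 366 CPM in OPCs and 1020 and 1049 CPM in Oligodendrocytes. Lrp1b, a large receptor of the lipoprotein receptor family, stood at 149 and 68.2 CPM in NFOs against 584 and 230 CPM in OPCs. Prnp in uninjured NFOs rested on 9 UMIs and Lrp1b on 14. Malat1, a nuclear RNA, was also lower in NFOs, at 49846 and 28319 CPM, than in OPCs (106894 and 37050 CPM) and Oligodendrocytes (61001 and 34163 CPM). Among barcodes with Malat1 at 0.5% of UMIs or more, a limit applied to every type after seeing the data, its NFO level was 1.18-fold and 1.20-fold that of Oligodendrocytes.

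Injured and uninjured NFOs were then compared, to describe how the stage differs 2 weeks after ONC. Of 1695 genes that reached a sum of 50 UMIs over the NFOs of both libraries together, 226 (13.3%) were at least 2-fold higher in the injured library and 68 (4.01%) at least 2-fold lower. With TMM scaling, which shifted every one of these log2 ratios by 0.18, the counts were 305 and 46. The median log2 ratio over these genes was 0.20, against 0.24 in OPCs and 0.05 in Oligodendrocytes. The higher genes included 2 of the NFO markers, myelin genes and immediate early genes, and the lower genes included most measured genes of cholesterol synthesis. As all values rest on 1 library each, they cannot be told apart from differences of preparation. The median mitochondrial share of UMIs was 9.46% over uninjured NFO barcodes and 3.10% over the injured ones.

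Genes of cholesterol synthesis, the pathway that supplies the main lipid of myelin, were lower in injured NFOs. The 18 genes of the list together stood at 3920 CPM (3530 to 4341) in uninjured and 1100 CPM (993 to 1215) in injured NFOs, a ratio of 0.281 (0.243 to 0.324). Of the 6 genes measured, 5 were at least 2-fold lower and none higher, with a median log2 ratio of -1.76. Over all 1695 genes 4.01% were at least 2-fold lower. Fdps, which makes farnesyl diphosphate, stood at 616 CPM (58 UMIs) and 102 CPM (36 UMIs), 6.02-fold (3.91 to 9.40) lower. Msmo1, a sterol oxidase of the later steps, went from 404 to 62.5 CPM, 6.46-fold (3.72 to 11.5) lower. Hmgcs1, at the head of the pathway, went from 648 to 153 CPM, 4.22-fold lower. The same list was lower in injured Oligodendrocytes, at a ratio of 0.140 (0.134 to 0.147). All 18 genes were at least 2-fold lower there, against 4.06% of all genes measured in that type. The NFO ratio is nearer to 1 than that of Oligodendrocytes. Both intervals cover counting error alone, and the difference between the types was not tested. In injured NFOs the list stood at 1167 CPM in the 8 deepest barcodes and at 1018 CPM in the others.

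The promoters of this list were read because its members were lower together. Sterol synthesis genes are known to be switched on by SREBP factors, which bind the sterol regulatory element, together with NF-Y, which binds CCAAT. In the RefSeq promoter table of GRCm38.p6, 12 of the 18 genes were matched, with 14 promoters. Both strands of the 250 bases before each start in that promoter table were searched. The letters CCAAT were in 12 of the 14 promoters, at least 1 for each of the 12 genes, against 33.8% of all 32851 promoters. The letters TCACNCCAC of the sterol regulatory element were in 1 of the 14, that of Hmgcs1, against 1.05% of all. A match of letters is a description and not a binding site. Hmgcs1 is shown as the promoter that holds both motifs, and Msmo1 as the gene with the lowest ratio named above, with 3 CCAAT matches. Capitals mark the matches, the sequences run 5′ to 3′ along the strand of the gene, and the matches of the motifs did not overlap. The Hmgcs1 stretch is chr13:119690101-119690350 on the plus strand and that of Msmo1 is chr8:64733579-64733828 on the minus strand. In the mm10 annotation used for gene coordinates, Msmo1 runs from 64718139 to 64733792. Most of its stretch, with the 3 matches, therefore lies inside the gene as annotated there.
Hmgcs1: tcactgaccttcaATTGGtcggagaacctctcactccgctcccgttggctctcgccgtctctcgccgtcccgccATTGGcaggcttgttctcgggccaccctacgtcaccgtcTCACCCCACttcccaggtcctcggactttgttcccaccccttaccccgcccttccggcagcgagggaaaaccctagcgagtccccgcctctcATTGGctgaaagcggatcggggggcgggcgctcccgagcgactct
Msmo1: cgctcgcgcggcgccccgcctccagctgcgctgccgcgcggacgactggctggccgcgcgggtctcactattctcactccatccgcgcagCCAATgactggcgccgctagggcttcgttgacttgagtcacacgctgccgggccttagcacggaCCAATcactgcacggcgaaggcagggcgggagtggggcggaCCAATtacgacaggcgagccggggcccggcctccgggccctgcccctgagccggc

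Most markers of the stage itself were higher in injured NFOs. Enpp6 was 2.96-fold (2.12 to 4.24) and Tmem163 3.75-fold (1.53 to 11.9) higher in injured NFOs, Fyn 1.93-fold (1.57 to 2.39), Bcas1 1.62-fold (1.36 to 1.94) and Tcf7l2 1.09-fold (0.754 to 1.62). Gpr17 was lower, at a ratio of 0.646 (0.517 to 0.812). Of the 7 OPC markers measured none was at least 2-fold higher and 2 were at least 2-fold lower. Over all genes measured the shares were 13.3% and 4.01%.

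The 8 myelin protein genes together were higher in injured NFOs, at a summed ratio of 1.42 (1.34 to 1.51). Its size depended on the setting. It was 1.20 after thinning to 500 UMIs and 1.24 without the deepest barcode of each class. In barcodes without a UMI of microglia and macrophage markers other than Spp1 it was 1.07. TMM scaling moved it the other way, to 1.61. The single genes differed. Of the 7 measured, 2 were at least 2-fold higher and 1 at least 2-fold lower, with a median log2 ratio of 0.59. Over all genes measured the shares were 13.3% and 4.01%, with a median of 0.20. Cnp, a myelin phosphodiesterase, stood at 2114 CPM in uninjured and 4471 CPM in injured NFOs, 2.11-fold (1.82 to 2.46) higher. Cldn11, the claudin of myelin tight junctions, stood at 499 and 1930 CPM, 3.86-fold (2.87 to 5.31) higher, and at 4566 and 4689 CPM in Oligodendrocytes, a ratio of 1.03. Mobp, a protein of compact myelin, was lower, from 776 to 298 CPM, a ratio of 0.385 (0.283 to 0.526). The remaining 4 of the 7 measured genes of the list were between the 2-fold limits.

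Among the genes with the highest ratios, some were close to absent from other classes. Syt4, a synaptotagmin of vesicle traffic, had 2 UMIs in 1 of 44 uninjured NFO barcodes and 166 UMIs in 21 of 100 injured ones, a ratio of 22.2 (6.05 to 185). It had 0 UMIs in OPCs and uninjured Oligodendrocytes and 24 UMIs in injured Oligodendrocytes, and 34.9% of its injured NFO UMIs came from 1 barcode. Hpgd, an enzyme that inactivates prostaglandins, had 1 UMI in NFOs of the control and 126 UMIs in 16 injured NFO barcodes, a ratio of 33.7 (5.94 to 1342), and 2 UMIs in injured Oligodendrocytes. Stmn4, a stathmin that binds tubulin, went from 63.7 to 406 CPM in NFOs, 6.38-fold (2.86 to 17.7) higher, but was level in Oligodendrocytes at a ratio of 0.981 (0.946 to 1.02). The tubulin genes Tuba1a and Tubb4a were 2.15-fold and 2.00-fold higher in injured NFOs and 2.59-fold and 2.77-fold lower in injured Oligodendrocytes.

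Other genes of this kind bear on adhesion, signalling and traffic. Itgb1, the beta-1 integrin chain, stood at 159 CPM in uninjured and 739 CPM in injured NFOs, 4.64-fold (2.76 to 8.41) higher, and was 3.16-fold higher in OPCs and 2.65-fold in Oligodendrocytes. Arf4, a GTPase of Golgi traffic, went from 149 to 699 CPM, 4.70-fold higher. Fmnl2, a formin that elongates actin filaments, was 7.89-fold (3.0 to 29.4) and the phosphatase Ptpn11 9.01-fold (3.0 to 44.4) higher, from 4 and 3 UMIs in the uninjured library. Itgb1, Arf4, Fmnl2 and Ptpn11 had similar levels in the 8 deepest injured barcodes and in the other 92, at 739 and 739, 708 and 689, 351 and 316, and 294 and 278 CPM. Serpina3n, a protease inhibitor known from injured glia, stood at 74.4 CPM (7 UMIs) and 603 CPM (212 UMIs), 8.10-fold (3.86 to 20.4) higher, against 2.27-fold in Oligodendrocytes.

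**Figure D3:**
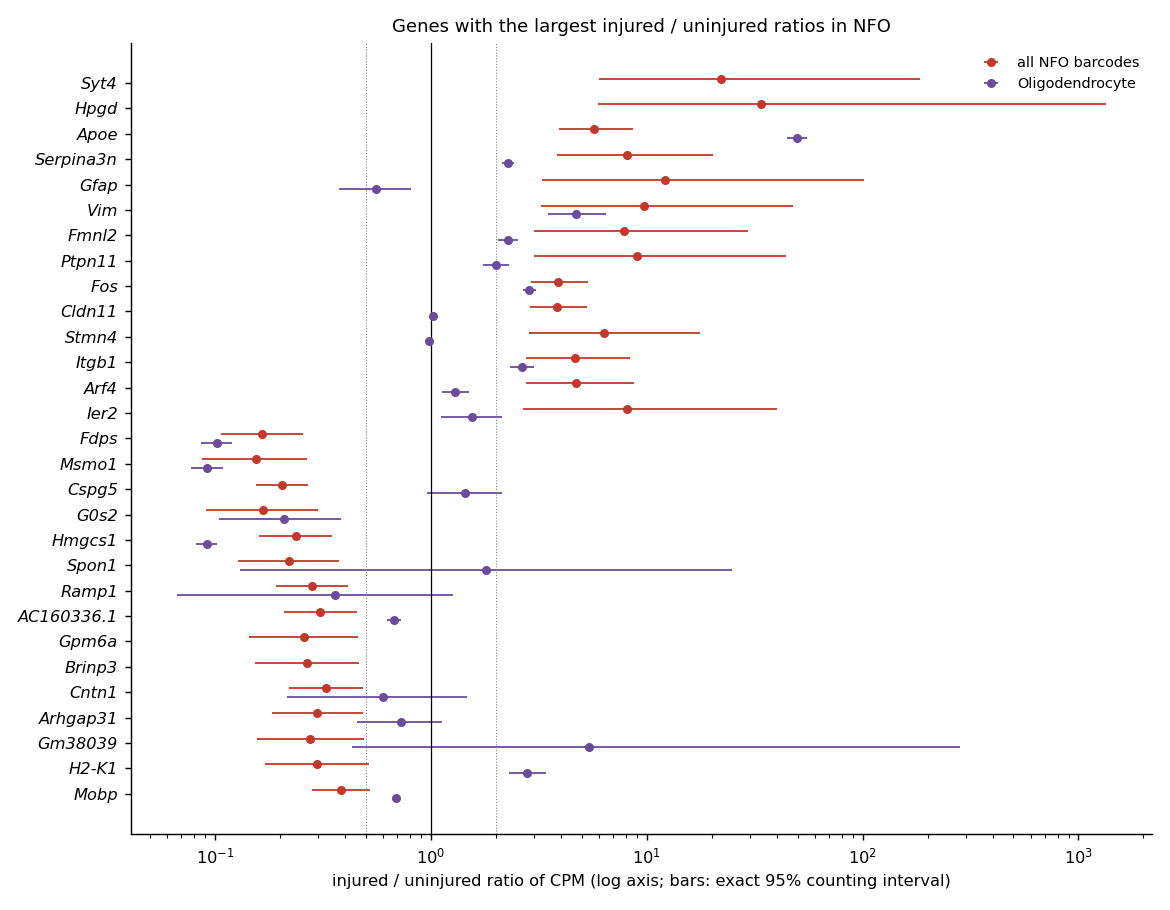
Ratio of CPM, injured over uninjured (log axis), of the genes with the highest and lowest ratios in NFOs, with exact 95% counting intervals, beside the ratios of the same genes in Oligodendrocytes where both libraries held UMIs. Fdps and Msmo1 are lower in both types, whereas Cldn11 and Stmn4 are higher in NFOs and near 1 in Oligodendrocytes; Spp1 is left out because uninjured NFOs held 0 UMIs of it.

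Immediate early genes, whose transcription follows stimulation within minutes and also follows tissue dissociation, were higher mainly in the deep barcodes. All 6 measured genes of the list were at least 2-fold higher, against 13.3% of all genes measured, and the summed ratio was 3.40 (2.85 to 4.08). The list stood at 7891 CPM in the 8 deepest injured NFO barcodes and at 1093 CPM in the other 92, against 926 CPM in the uninjured barcodes under 8000 UMIs. Fos had 644 of its 715 injured UMIs in those 8 barcodes. Its ratio was 3.90 (2.92 to 5.33) over all NFO barcodes and 1.09 in those under 8000 UMIs, and that of Ier2 8.12 and 1.18.

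Several high ratios moved with markers of other cells. The list of 16 microglia and macrophage markers had UMIs of 3 genes in NFOs of the control, at 95.6 CPM (43.7 to 182), and of 15 genes in injured NFOs, at 946 CPM (847 to 1054), where only Cx3cr1 had 0 UMIs. A UMI of the list was present in 88% of injured NFO barcodes and in 87.7% of injured Oligodendrocyte barcodes, at medians of 1258.5 and 1268 UMIs. Its level was 2114 CPM in injured NFO barcodes with Malat1 under 0.5% and 315 CPM in the others. Spp1 (osteopontin), a member of that list, had 0 UMIs in the uninjured class and 64 UMIs after ONC, at least 5.71-fold higher with the uninjured class set at 3 UMIs. Apoe, a lipid carrier of microglia and astrocytes, stood at 297 CPM in uninjured and 1702 CPM in injured NFOs, 5.72-fold (3.92 to 8.69) higher. In Oligodendrocytes it was 49.9-fold (44.9 to 55.6) higher, and Apoe had a UMI in 97% of injured NFO, 100% of injured OPC and 96.2% of injured Oligodendrocyte barcodes. The part of RNA from other cells in these values was not tested.

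The intermediate filament genes Gfap and Vim, markers of astrocytes and of reactive glia, were also among the highest ratios. Gfap had 2 UMIs in the uninjured class and 91 UMIs after ONC, a ratio of 12.2 (3.27 to 102), and 1 barcode held 68.1% of the latter. Vim had 3 and 109 UMIs, a ratio of 9.72 (3.24 to 47.9) that was 4.84 without the deepest barcode of each class. The summed level of the 8 astrocyte markers was 489 CPM in uninjured and 446 CPM in injured NFOs, a ratio of 0.913 (0.654 to 1.3) that TMM scaling turned to the other side of 1. Fibroblast and pericyte, endothelial, Schwann cell, neuron and T cell markers summed to between 0 and 53.1 CPM in either NFO class.

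Lower genes other than those of cholesterol synthesis included genes of the precursor. Cspg5, a chondroitin sulphate proteoglycan, stood at 1285 CPM in uninjured and 264 CPM in injured NFOs, 4.86-fold (3.68 to 6.44) lower, against 1.17-fold lower in OPCs. Spon1, Ramp1 and Cntn1, each higher in OPCs than in Oligodendrocytes, were 4.54-fold, 3.55-fold and 3.06-fold lower. Pdgfra itself, with 19 and 15 UMIs, missed the minimum of 50 summed UMIs and was 4.73-fold (2.28 to 10.0) lower. It was also lower in injured than in uninjured OPCs, by the levels given above. G0s2, an inhibitor of lipolysis, was 5.98-fold (3.32 to 11) lower, and 4.76-fold lower in Oligodendrocytes. The class I histocompatibility genes H2-K1 and H2-D1 were 3.36-fold and 2.09-fold lower in NFOs, whereas they were 2.80-fold and 4.83-fold higher in Oligodendrocytes. When each barcode had the same weight, the NFO ratio of H2-K1 was 1.26, so its direction depended on the weighting, and 48.1% of its uninjured UMIs came from 1 barcode.

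Finally, NFO barcodes were split by Malat1, an RNA that stays in the nucleus and therefore bears on how much nuclear RNA a barcode holds. Malat1 was under 0.5% of UMIs in 28 of 44 uninjured (63.6%, 47.8 to 77.6) and 77 of 100 injured NFO barcodes (77%, 67.5 to 84.8), here called Malat1-poor. The same limit took in 0 of 58 uninjured OPCs, 5.60% of uninjured Oligodendrocytes, 29.4% of injured OPCs and 45.4% of injured Oligodendrocytes. Malat1-poor barcodes were shallower, with medians of 1060.5 and 1137 UMIs against 2930.5 and 3214 in the other NFO barcodes, and held 32.3% and 35.1% of the NFO UMIs. All barcodes of 8000 UMIs or more lay outside the Malat1-poor class. Mitochondrial genes took a median of 11.2% of UMIs in uninjured Malat1-poor and 6.77% in other uninjured NFO barcodes, and 3.85% and 2.67% in the injured library.

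**Figure D4:**
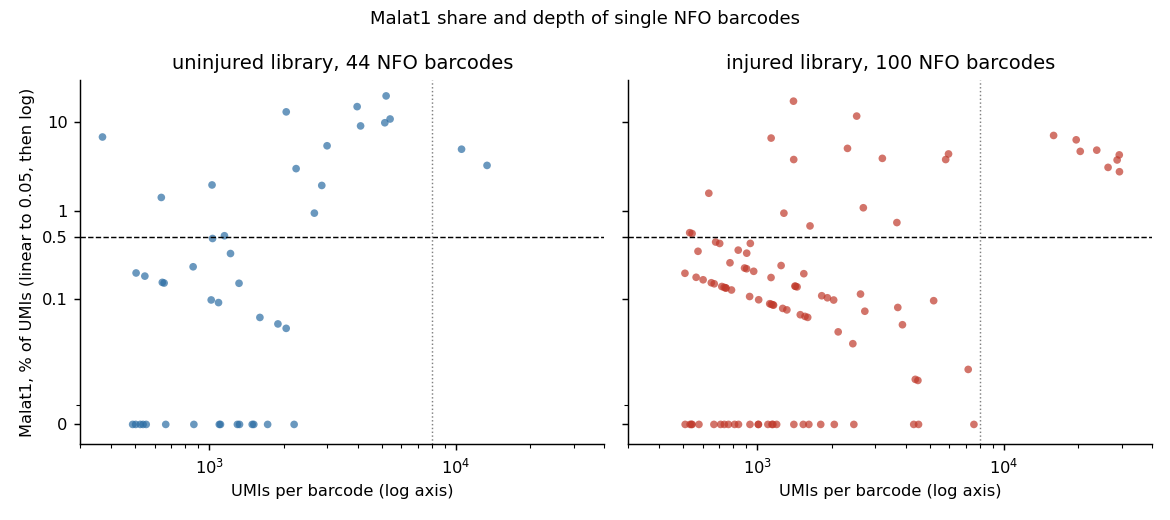
Malat1 as a percent of UMIs in each NFO barcode (vertical axis) against its total UMIs (log axis), for the 44 uninjured and 100 injured NFO barcodes. The line marks the limit of 0.5%, with 28 uninjured and 77 injured barcodes under it, and no barcode under it reaches 8000 UMIs.

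The stage markers differed between the classes. Summed, the 6 NFO markers had 64 UMIs in uninjured Malat1-poor barcodes and 381 in the others, a ratio of CPM of 0.327 (0.247 to 0.427) with Malat1 left out of the totals. In the injured library the ratio was 0.689 (0.631 to 0.752). With a minimum of 500 genes and a maximum of 10% mitochondrial UMIs, the uninjured ratio was 0.515. At least 2 of the 6 markers had a UMI in 28.6% of the uninjured Malat1-poor and 93.8% of the other barcodes, and in 66.2% and 91.3% after ONC. Thinned to 500 UMIs these shares were 25.9% and 80%, and 51.9% and 78.3%. In the uninjured library it was thus mostly the 16 other barcodes that held several NFO markers. Fyn stood at 527 and 1380 CPM in uninjured Malat1-poor and other barcodes and at 2268 and 2053 CPM in injured ones, so the classes were alike for Fyn after ONC. Tcf7l2 had 0 UMIs in uninjured Malat1-poor barcodes.

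Across genes, 17 of 240 (7.08%) were at least 2-fold higher and 24 (10%) at least 2-fold lower in Malat1-poor barcodes of the uninjured library. In the injured library 36 of 1307 (2.75%) were higher and 149 (11.4%) lower. TMM scaling gave 11 higher and 31 lower in the former and 56 and 126 in the latter, with log2 shifts of -0.21 and 0.13. The balance in the injured library depended on depth and weighting, with 246 higher and 57 lower of 493 genes under 8000 UMIs, 206 and 197 of 1307 with equal weight per barcode, and 25 and 1 of 131 after thinning. In the uninjured library these were 32 and 17 of 159, 24 and 23 of 240, and 4 and 1 of 28. Of 239 genes measured in both libraries, 6 were higher in both (2.51%), namely Fabp7, Ptn, Cspg5, Fth1, Mbp and Mobp, and 11 were lower in both (4.6%), namely Vcan, Zbtb20, Son, Dst, Zeb2, Gria2, Gpr17, Jun, Tcf4, Opcml and AC160336.1. None (0) was higher in one library and lower in the other.

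Of the genes lower in both libraries, Opcml had the lowest ratio in the uninjured one. Opcml, an adhesion molecule of the neuronal surface and of OPCs, stood at 165 and 1239 CPM in uninjured Malat1-poor and other barcodes, 8.11-fold (3.33 to 25.7) lower, and at 154 and 1230 CPM in injured ones, 8.35-fold (5.25 to 14.1) lower. Gria2, an AMPA receptor subunit, was 5.85-fold and 5.06-fold lower, the transcription factor Zeb2 6.80-fold and 3.12-fold, and Son, a protein of nuclear speckles, 5.39-fold and 3.44-fold. Opcml and Gria2 rested on 5 UMIs each in uninjured Malat1-poor barcodes.

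Other nuclear RNAs were low with Malat1. Neat1, the RNA of paraspeckles, stood at 97.2 CPM in injured Malat1-poor and 1173 CPM in other injured barcodes, 12.6-fold (7.10 to 24.7) lower. Kcnq1ot1, a long antisense RNA that stays at its locus, had 0 UMIs in the Malat1-poor class of either library and 48 and 75 UMIs in the others. Immediate early genes were lower in Malat1-poor barcodes, at a summed ratio of 0.227 (0.121 to 0.396) in the uninjured and 0.134 (0.111 to 0.162) in the injured library. The 8 deep injured barcodes were all among the others, and under 8000 UMIs the injured ratio was 0.611, from 120 and 53 UMIs. After thinning to 500 UMIs the ratios were 0.455 and 0.279.

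The genes higher in both libraries included 2 myelin genes, Mbp and Mobp. Mbp, which encodes myelin basic protein and whose RNA is carried into the processes, stood at 7246 and 3324 CPM in uninjured Malat1-poor and other barcodes and at 7064 and 3122 CPM in injured ones. The injured ratio of Mbp was on the other side of 1 with equal weight per barcode (0.937) and after thinning (0.915), as was that of Mobp after thinning, at 0.935 in the uninjured and 0.964 in the injured library. Fabp7, a fatty acid binding protein, was 5.69-fold (2.97 to 11.6) and 3.13-fold (1.96 to 5.07) higher, and the ferritin heavy chain gene Fth1 2.35-fold and 2.57-fold. The injured values turned on the 8 deep barcodes. Against the other injured barcodes under 8000 UMIs, the ratio was 0.884 for Fth1 and 0.96 for Apoe, which over all barcodes was 3.16-fold higher. Metallothionein genes were higher in injured Malat1-poor barcodes, Mt1 at 7.39-fold (6.02 to 9.13) and Mt3 at 7.09-fold (4.75 to 10.9), but 1 barcode held 80.2% of the Mt1 and 62.9% of the Mt3 UMIs of that class.

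**Figure D5:**
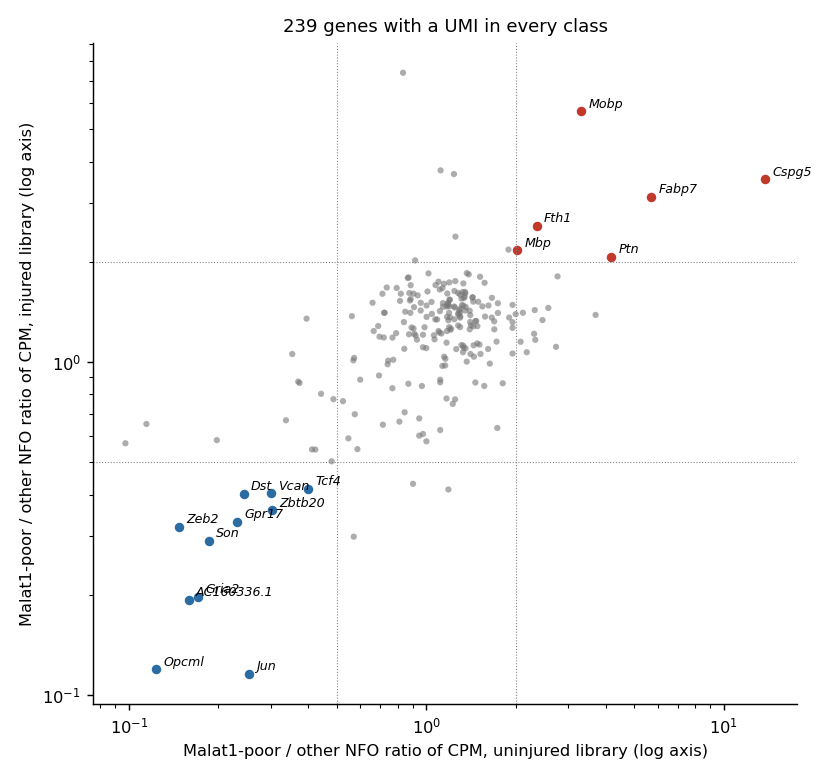
Ratio of CPM, Malat1-poor over other NFO barcodes, in the injured (vertical, log axis) against the uninjured library (horizontal, log axis) for the 239 genes measured in both. Fabp7 (5.69-fold and 3.13-fold) lies at the upper right and Opcml (8.11-fold and 8.35-fold lower) at the lower left, and no gene is 2-fold or more in opposite directions.

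Since Malat1-poor barcodes were common, the injured and uninjured libraries were also compared within each class. Among 493 genes of Malat1-poor barcodes 72 were at least 2-fold higher and 29 lower in the injured library, and among 1066 genes of the other barcodes 162 and 47. Fyn was 4.30-fold (2.60 to 7.64) higher in injured than in uninjured Malat1-poor barcodes and 1.49-fold (1.18 to 1.89) higher in the other barcodes.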

How the data were processed

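Wild-type optic nerve cells were captured by 10x Chromium in 1 injured and 1 uninjured library. The submitters' processing notes name bcl2fastq 2.17.1.14, Cell Ranger 1.3, Seurat 4.0.3 and build mm10. The authors kept cells with at least 200 genes, at most 20% mitochondrial UMIs and at most 150000 UMIs, typed them, and deposited for 1369 barcodes and 31053 genes the natural log of 1 plus UMIs per 10000. UMIs were recovered by inverting that log and dividing by each barcode's smallest value above 0, and came out whole within 0.001 in 100% of barcodes. The authors' UMI limit was the only step against doublets, and Scrublet (scanpy 1.11.5) was an alternative. It called 4 NFO barcodes, 1 uninjured and 3 injured.

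UMIs were summed per type and library. Genes with at least 50 UMIs summed over the 2 arms together were compared as ratios of CPM with exact intervals, and no p-value was computed. Malat1 was left out of the totals in its own split. Named genes were the 15 highest and 15 lowest per comparison by the interval bound nearest 1, seen in at least 10% of the barcodes of the higher arm, and members of fixed lists. Other genes in the text are markers or members of counts. The members and lists were chosen with earlier results of these data known. On simulated counts for injured against uninjured NFOs (1695 genes), 96.4% of intervals held the true ratio. Those counts held counting error alone, the model behind the intervals. The simulation therefore checks the computation and leaves out the spread between barcodes and between nerves. Alternatives changed the minimum, weighting, scaling, depth and barcode filters. Computation used pandas 2.3.3 with scipy 1.17.1 and numpy 2.4.6 under Python 3.11.15, gene coordinates are from an annotation of mm10, and promoter sequences are from RefSeq.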

Additional observations from a re-analysis of the deposited data

Results flagged for a closer look

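In 9 of 1526 genes (0.59%) the injured over uninjured ratio was at least 2-fold in opposite directions in NFOs and Oligodendrocytes, and both counting intervals left out 1. The 1526 are the genes measured in both types, without mitochondrial and ribosomal protein genes. None of these differences was tested, as there was 1 library per condition. The ratio was 2.15 in NFOs and 0.386 in Oligodendrocytes for Tuba1a, and 2.00 and 0.362 for Tubb4a, both tubulin genes. It was 2.91 and 0.192 for Rab33a, a GTPase of vesicle traffic, 2.62 and 0.443 for Abhd17b, a depalmitoylating enzyme, and 2.41 and 0.488 for Rasgef1b, a guanine exchange factor. In the other direction it was 0.297 and 2.80 for H2-K1 and 0.479 and 4.83 for H2-D1, the class I histocompatibility genes. It was also 0.476 and 5.20 for the transcriptional cofactor Lbh, and 0.499 and 3.66 for the cyclin Ccnd1.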

How the results depend on the processing

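No paired analysis was possible because there was 1 library per condition, and no replicate could be left out for the same reason. Ratios with 1 class at 0 UMIs were computed with that class at 3 UMIs. Of the 494 ratios of named genes and list sums recomputed for injured against uninjured NFOs, 400 stayed within the counting interval and 3 changed direction. For Malat1-poor against other barcodes 4 of 378 changed direction in the uninjured and 12 of 376 in the injured library. Settings that change only the minimum of summed UMIs leave a gene's ratio as it was. Their ratios are among those that stayed, by construction. The cause of these moves was not tested, apart from the number of genes measured, which the minimum and the barcodes kept set by construction. The 18 genes higher than in both neighbours stayed above 1 in all 4 comparisons under every alternative except equal weight per barcode (16 genes). Under the alternatives that can move a ratio, 11 to 17 of them stayed 2-fold. Some alternatives were chosen after seeing the data, namely leaving out the deepest barcode of each class, leaving out barcodes with a UMI of the microglia list other than Spp1, keeping barcodes with at least 2 of 6 NFO markers, and Malat1 of at least 0.5% in every type.

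Counts of genes at least 2-fold higher and lower were 226 and 68 for injured against uninjured NFOs. They were 44 and 11 with at least 200 summed UMIs, 1075 and 1910 with no minimum, 92 and 30 in barcodes under 8000 UMIs, 31 and 11 after thinning to 500 UMIs, 72 and 29 in Malat1-poor barcodes, and 34 and 19 in the 16 injured and 35 uninjured barcodes without a UMI of the microglia list other than Spp1, and 121 were lower with equal weight per barcode. For the uninjured Malat1 split (17 and 24) they were 4 and 2 with at least 200, 792 and 900 with no minimum, 5 and 7 with a stricter filter (a minimum of 500 genes and a maximum of 10% mitochondrial UMIs), 4 and 1 after thinning and 10 and 15 with at least 2 markers, and 32 were higher under 8000 UMIs and 11 with TMM. For the injured split (36 and 149) they were 7 and 18 with at least 200, 817 and 1767 with no minimum, and 246 and 57 under 8000 UMIs, 206 were higher with equal weight and 56 with TMM, and 1 was lower after thinning. For NFOs against both neighbours (18 and 4) they were 33 and 8 with equal weight, 5 and 0 with at least 200, 80 and 75 with no minimum, and 3 and 1 after thinning, and 2 were lower with TMM, 0 under 8000 UMIs and 2 without Scrublet doublets.

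The NFO share of 4.59% and 24.4% was 55.5% and 48.3% when at least 2 of 6 markers replaced the authors' type, without thinning. That turned its direction at own depth, but the marker measure depended on depth. After thinning it was larger in the injured library, as given above. With that stricter filter the NFO share by the authors' types was 3.07% and 32.7%. The uninjured Malat1-poor share went from 63.6% to 47.4%. Thinning took the injured share with at least 2 markers from 72% to 58%.

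Directions turned for these ratios. Injured over uninjured, Brinp3 was 1.11 in Malat1-poor barcodes, and H2-K1 was 1.26 with equal weight and 1.54 after thinning. Malat1-poor over other uninjured barcodes, Mobp was 0.935 after thinning, Tmem176a 0.829 with the stricter filter and 0.599 with at least 2 markers, where Tmem176b was 0.920. In the injured split, ratios under 8000 UMIs were 0.962 for Gm42418, 0.927 for AY036118, 0.96 for Apoe and 0.884 for Fth1, with equal weight 0.913 for Fth1 and 0.937 for Mbp, after thinning 0.931 for Fth1, 0.915 for Mbp and 0.964 for Mobp, and with at least 2 markers 0.699 for Ccnd1, 0.548 for Prdx6 and 0.586 for Cspg5. Of NFOs over OPCs, uninjured Bcas1 was 0.985 with equal weight, uninjured Anks1b 1.33 and Sec11c 1.87 and injured Sec11c 2.04 after thinning, and injured Gpm6b 1.39 with equal weight, 1.34 under 8000 UMIs and 1.26 after thinning. Of uninjured NFOs over Oligodendrocytes, Enpp6 was 1.21, 1.01 and 1.20 in these settings, and Malat1 was 1.18 in the uninjured and 1.20 in the injured library with at least 0.5% in every type.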

Other observations

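Genes of cell division were sparse in NFOs. The list of 9 such genes summed to 32 UMIs in 7 of 44 uninjured NFO barcodes (340 CPM, 233 to 480) and 60 UMIs in 29 of 100 injured ones (171 CPM, 130 to 220), against 823 CPM in uninjured and 884 CPM in injured OPCs. In the uninjured library 28 of the 32 UMIs lay in Malat1-poor barcodes. None of the 9 genes reached 50 summed UMIs in NFOs.

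Other lists were compared as injured over uninjured ratios within a type. Proteoglycans and tenascins, the matrix molecules that OPCs make in quantity, were at a ratio of 0.611 (0.548 to 0.683) in NFOs. In Oligodendrocytes the ratio was 1.61 (1.26 to 2.06), from 126 injured and 141 uninjured UMIs. Of the 4 genes of that list measured in NFOs, 1 was at least 2-fold lower, Cspg5, against 4.01% of all genes measured. The injured over uninjured ratio of galactolipid synthesis was 1.22 (0.987 to 1.51) in NFOs, an interval that spans 1, and 0.580 (0.561 to 0.598) in Oligodendrocytes. Ribosomal protein genes summed to an injured over uninjured ratio of 0.965 (0.942 to 0.989) in NFOs, which TMM scaling turned to the other side of 1.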
